A study of Mus musculus with 12 samples.

Results

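The genes described are those of the nuclear pore complex and of the soluble machinery that carries proteins and RNA through it. They were taken by name from the deposited footprint and RNA tables: all symbols that begin with Nup, Kpna, Ipo or Tnpo and a number or with Xpo, plus Kpnb1, Ranbp2, Tpr, Pom121, Ndc1, Aaas, Cse1l, Ran and Rangap1. The rule found 55 of the 22034 symbols of the footprint table and 54 of the 49997 of the RNA table, with 52 in both. Of the 55, 28 encode nucleoporins, the structural proteins of the pore, and 25 encode transport receptors. The other 2, Ran and Rangap1, encode the small GTPase of the system and its GTPase-activating protein. The rule reads symbols alone, but it was set with earlier results of these data known.

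All 12 libraries came from ES-E14TG2a, a mouse embryonic stem cell line, in which the translation release factor eRF1 carried a dTAG degron, cultured in medium with LIF, a GSK3 inhibitor and a MEK inhibitor. dTAG-13 is a small molecule that brings tagged proteins to a ubiquitin ligase for degradation. Footprints, the fragments of mRNA protected by ribosomes, were sequenced from wild-type and from Gcn2 knockout cells, each untreated or kept for 1 h in 500 nM dTAG-13, and poly(A) RNA from untreated and treated wild-type cells. Each group had 2 biological replicates, A and B. The labels mention neither a vehicle control nor untagged cells given dTAG-13. An effect of the compound itself thus cannot be told apart from one of losing eRF1. The labels also do not say how many knockout clones were used. In every comparison of knockout with wild type, loss of Gcn2 thus cannot be separated from other differences between clones, which was not tested.

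The pore is built from subcomplexes that each occur in many copies: a Y-shaped scaffold in the outer rings, an inner ring, phenylalanine-glycine repeat proteins in the channel, filaments on the cytoplasmic side, a basket on the nuclear side and membrane anchors. Receptors of the importin β family bind cargo directly, or through importin α, and move through the channel by touching those repeats. Ran bound to GTP, which is kept high in the nucleus by Rcc1 and low in the cytoplasm by Rangap1, releases import cargo and loads export cargo. Gcn2, a kinase activated by amino acid shortage and by stalled ribosomes, slows initiation through phosphorylation of eIF2.

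The footprint libraries held between 7874804 and 19691716 counts, the RNA libraries between 17462458 and 24256097, and replicates of each group differed by more than counting error. Footprints of Eif2ak4, the gene of Gcn2, lay at 27.7 to 34.0 CPM (counts scaled to a common library total after TMM, a normalization of library sizes) in wild-type libraries and at 2.33 to 5.36 CPM in knockout libraries. Since dTAG-13 acts on a protein, no count in these tables measures the loss of eRF1. The 9 embryonic stem cell markers summed to 5627 to 6207 CPM in every footprint library, against 3.91 to 9.07 CPM for 5 fibroblast markers, among which S100a4 was at 0, and 0 to 0.408 CPM for 5 two-cell-like markers, among which Tcstv1 was at 0. All values are shares of a library. A shift in total translation would thus not be seen, and fewer cells of a type cannot be told apart from less RNA per cell. Footprint counts per gene also cannot tell more ribosomes loaded on an mRNA from ribosomes that stay on it longer. Which of these applied after treatment was not tested.

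In untreated wild-type cells the nucleoporin genes together held 0.448% ± 0.0248 (SD, n = 2) of all footprint counts and the receptor genes 0.672% ± 0.0482. Kpnb1, which encodes importin β1, the carrier of most classical import cargo, had 1146 (A) and 1221 (B) CPM. The filter on low counts removed 4 of the 55 symbols. Kpna2, an importin α, had 1 footprint count over all 8 libraries although its RNA was read at 17.5 (A) and 17.4 (B) CPM in untreated cells, and its near-copy Kpna2rt had 37 to 87 footprint counts per library and no entry in the RNA table. The sources used here do not say how reads that fit both were counted, so the footprints of this pair and the RNA counts of Kpna2 are uncertain. Kpna7 had 0 to 5 counts per library, and Nup50l and Nup58 were listed at 0, the latter being named Nupl1 in the RNA table. The remaining 51 members, 26 nucleoporins, 23 receptors and both Ran genes, were tested for footprints, and all of them had counts in every library.

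Footprint CPM divided by RNA CPM of the same gene ranged from 0.207 for Ipo4 to 16.4 for Nup43 over the 50 members with both values in untreated wild-type cells. This ratio removes gene length only as far as both tables were counted over the same stretch of each gene, which the sources used here do not state, and levels of different genes are for that reason not compared on the footprint scale alone. The median ratio was 0.958 for the 26 nucleoporins and 0.821 for 22 receptors. The nuclear basket gene Tpr (0.241) and the cytoplasmic filament gene Ranbp2 (0.30) were at ranks 2 and 4 from the bottom. At the top, Nup35, Ipo11, Ipo8 and Nup43 lay at 6.94 or above, and their RNA CPM were low (means of 7.74 to 27.5 untreated). Low RNA was not limited to high ratios: Nup88 (mean of 19.5 CPM) and Nup210l (4.26 CPM) had ratios of 1.03 and 1.51.

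The first comparison asks how dTAG-13 treatment of wild-type cells altered footprints on the pore and transport genes. Ranbp2 rose 2.11-fold and Tpr 1.96-fold, and Nup155 and Nup205 of the inner ring and Nup214 of the cytoplasmic face rose by less. Tnpo3, the receptor that imports splicing factors rich in serine and arginine, fell. In all, 6 of 51 members were called (edgeR quasi-likelihood test, Benjamini-Hochberg adjusted p under 0.05 over all genes tested), against 4.88% of all 12267 genes tested. The 5 that rose were all nucleoporins, where 2.94% of all genes rose, and the 1 that fell was a receptor, where 1.94% of all genes fell. The median SE was 0.122 for the members and 0.182 for all genes tested, so a given change was easier to call in the members. With libraries scaled by total counts alone, which moves the median of all genes by −0.08 on the log2 scale, 3 members rose and 3 fell, and over all genes the 361 that rose and 238 that fell became 224 and 377.

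**Figure D1:**
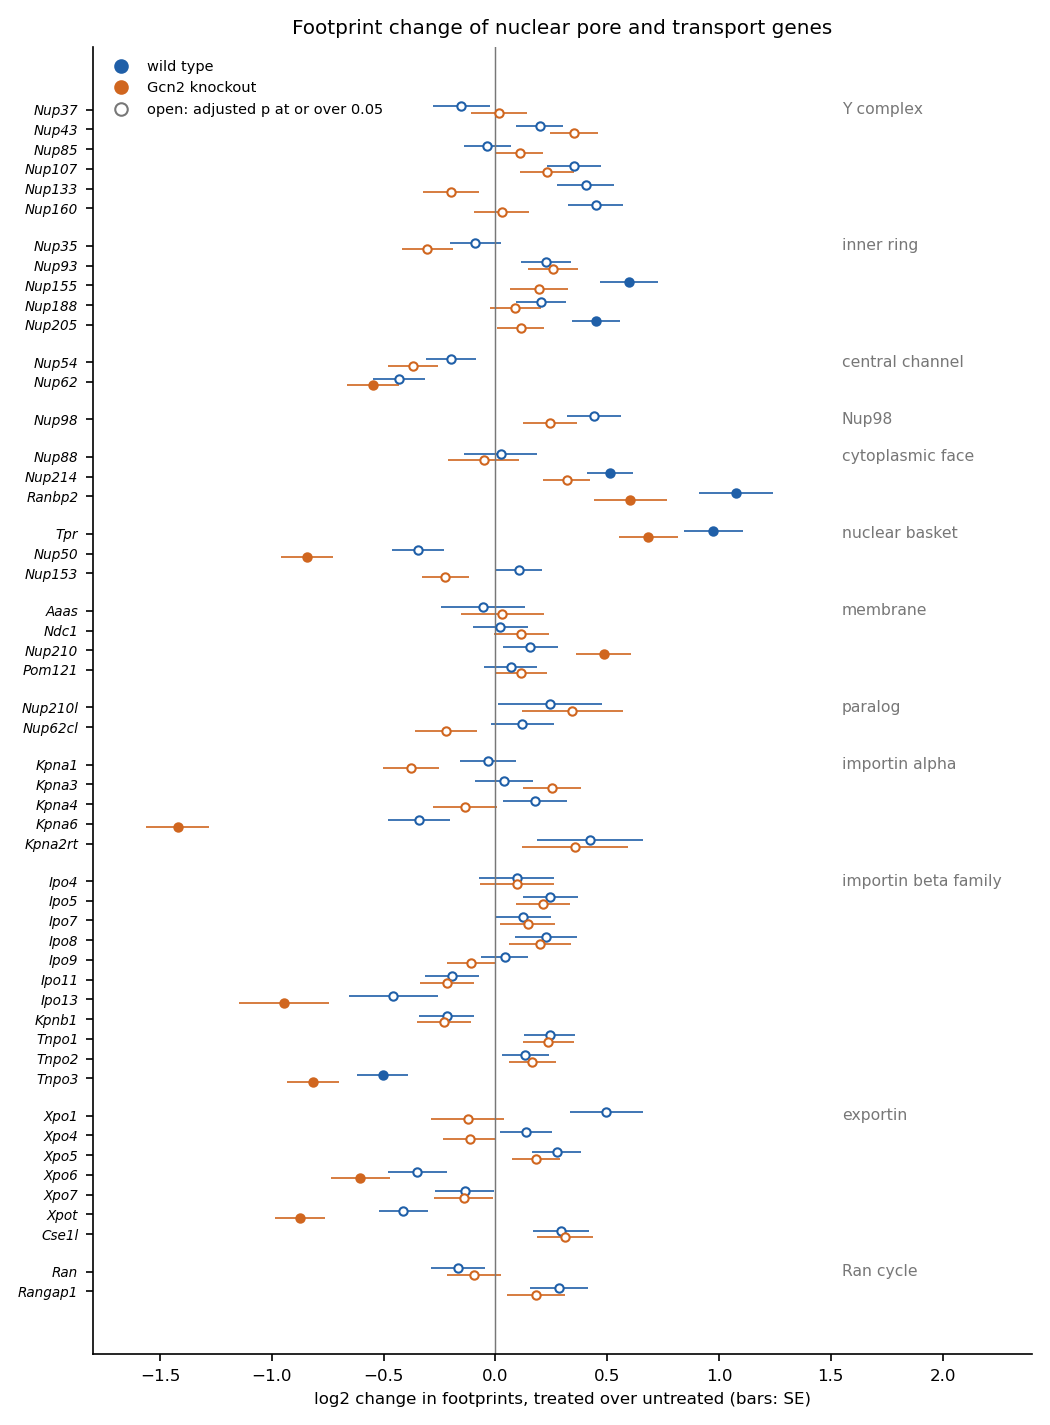
Log2 change in footprints, treated over untreated (x axis), for the 51 members tested, grouped by role, in wild-type (blue) and Gcn2 knockout (orange) cells, with bars of 1 SE and filled points at an adjusted p under 0.05. Ranbp2 (1.08) and Tpr (0.97) lie farthest right in wild-type cells, and Kpna6 (−1.42) farthest left in the knockout.

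Promoter sequences were read for the genes with the largest gains and for the receptor that fell in both genotypes. The bases upstream of the start site are from RefSeq promoters of GRCm38.p6, without stretches inside the annotated gene unless the marked motif lies there. Capitals mark TGATGACG in Ranbp2 and Tpr and CTTCCGG, the reverse complement of the ETS motif CCGGAAG, in Tnpo3.
Ranbp2, chr10:58446752-58446851, plus strand: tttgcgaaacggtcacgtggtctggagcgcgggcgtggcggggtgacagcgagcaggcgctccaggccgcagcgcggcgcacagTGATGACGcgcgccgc
Tpr, chr1:150392738-150392814, plus strand: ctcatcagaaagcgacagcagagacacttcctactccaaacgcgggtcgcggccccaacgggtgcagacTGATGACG
Tnpo3, chr6:29609859-29609949, minus strand: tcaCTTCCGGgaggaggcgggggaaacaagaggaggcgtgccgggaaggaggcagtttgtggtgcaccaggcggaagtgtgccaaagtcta
The octamer TGATGACG begins 16 bases before the table's start of Ranbp2 and 31 bases before that of Tpr. In Tpr it falls from 150392807 to 150392814, inside the annotated gene, whose first base is 150392802. It was noticed in these sequences after the results were known, and it contains the shorter motif TGACG.

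The table held 47 promoters of 40 of the 51 tested members, and motifs were searched on both strands of the 100 bases before the start. The octamer was present in 2 of the 47 (4.26%) and in 0.399% of all 32851 promoters. Those 2 are the Ranbp2 and Tpr sequences in which it was noticed, so its share among the members follows from how it was picked. TGACG was present in 7 (14.9%), against 10.5% of all promoters. The ETS motif was present in 8 (17%), against 4.52% of all promoters, and the NRF1 motif, GCGCA followed directly by its reverse complement, in 3 (6.38%), against 0.539%. GGGCGG, the motif of SP factors, was found in 38.3% of the members' promoters and 24.7% of all, CCAAT in 27.7% and 18.9%, AAGATGGC, the motif of YY1, in 2.13% and 0.524%, and TATAAA in 4.26% and 5.56%. The median GC content of these windows was 67.0% for the members and 55.0% over all promoters. The set of all promoters was matched to the members neither for GC content nor for expression. These shares thus do not show a trait particular to the members. A match is a description of the letters, not a site of binding.

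Ranbp2 (chromosome 10, 58446852 to 58494155, GRCm38) encodes the large protein of the cytoplasmic filaments, which is a SUMO ligase and holds Rangap1 at the pore. Its footprints in wild-type cells were at 99.0 (A) and 113 (B) CPM untreated and 226 (A) and 222 (B) CPM treated. The treated libraries lay well above the untreated ones, a 2.11-fold rise (log2 change 1.08, SE 0.164, adjusted p = 0.00375). Tpr (chromosome 1, 150392802 to 150449935), the filament protein of the nuclear basket, had 99.1 (A) and 103 (B) CPM untreated and 198 (A) and 198 (B) CPM treated. It too was higher in both treated libraries, by 1.96-fold (log2 change 0.97, SE 0.132, adjusted p = 0.00215). These were the only members called in each fit that left out 1 library, and the only ones called in a fit of the 4 wild-type libraries by themselves (adjusted p = 0.0378 for both).

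The Y complex, the scaffold of the outer rings, had no called member among 6, where 4.88% of all genes were called. Nup160 (0.45, adjusted p = 0.0549), Nup133 (0.40, adjusted p = 0.0903) and Nup107 (0.35, adjusted p = 0.120) had positive log2 changes in estimate, and that of Nup37 was the lowest (−0.15). Nup107, whose name the complex often carries, had 131 (A) and 159 (B) CPM untreated and 179.7 (A) and 190.4 (B) CPM treated, with both treated libraries above both untreated ones.

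In the inner ring, which lines the membrane at the waist of the pore, 2 of 5 members rose, where 2.94% of all genes did. Nup205, a large scaffold protein, had 429.8 (A) and 419.9 (B) CPM untreated and 589 (A) and 572 (B) CPM treated, so the groups were well apart (log2 change 0.45, SE 0.106, adjusted p = 0.0291). Nup155 had 148 (A) and 191 (B) CPM untreated and 258 (A) and 255 (B) CPM treated, and its untreated libraries differed from each other by more than its treated ones (log2 change 0.60, SE 0.129, adjusted p = 0.0189). Nup93, the hub that joins the ring to the channel, had an estimate of 0.23 (adjusted p = 0.296), and Nup35 had the lowest of the ring (−0.09).

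On the cytoplasmic face, Nup214, a platform for the last step of mRNA export, had 168 (A) and 175 (B) CPM untreated and 245 (A) and 244 (B) CPM treated. The groups did not overlap and replicates were close (log2 change 0.51, SE 0.104, adjusted p = 0.0140). Its partner Nup88 did not pass (0.02, adjusted p = 0.960), with 17.6 to 23.9 CPM over the wild-type libraries. Nup98, a repeat protein that can also bind mRNA export factors, had 279 (A) and 320.1 (B) CPM untreated and 390.1 (A) and 424 (B) CPM treated, just above the threshold (log2 change 0.44, SE 0.120, adjusted p = 0.0541).

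The channel proteins had negative estimates. Nup62, the central repeat protein to which importin β1 binds, had 335 (A) and 304 (B) CPM untreated and 251 (A) and 223 (B) CPM treated, with both treated libraries below both untreated ones, and did not pass (log2 change −0.43, SE 0.116, adjusted p = 0.0524). The log2 change of Nup54, its partner, was at −0.20 (adjusted p = 0.372). Of the other basket proteins, Nup153 was at 0.11 (adjusted p = 0.650) and Nup50, which also helps recycle importin α, at −0.34 (adjusted p = 0.114). The membrane proteins stayed close to 0 in estimate, from −0.06 for Aaas, which sits on Ndc1, to 0.16 for Nup210, with Ndc1 at 0.02 and Pom121 at 0.07 (adjusted p of at least 0.542).

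Among the receptors of wild-type cells, Tnpo3 (chromosome 6, 29540827 to 29609858) had 274 (A) and 241 (B) CPM untreated and 185 (A) and 178 (B) CPM treated. The treated libraries were lower without overlap, by 1.42-fold (log2 change −0.50, SE 0.115, adjusted p = 0.0244). No importin α of 5, Kpna2rt among them, and none of 7 exportins was called, where 4.88% of all genes were. The log2 change of Xpot, the exporter of tRNA, was at −0.41 (adjusted p = 0.0541), Ipo13 at −0.46 (adjusted p = 0.231) and Kpna6 at −0.34 (adjusted p = 0.195). Xpo1, the exporter of proteins with leucine-rich signals, had 453 (A) and 557 (B) CPM untreated and 634 (A) and 789.9 (B) CPM treated, with the higher value of each group in replicate B (log2 change 0.50, SE 0.164, adjusted p = 0.110). Cse1l, which returns importin α to the cytoplasm, was at 0.29 (adjusted p = 0.225), and Kpnb1 at −0.22 (adjusted p = 0.363). Ran (−0.17, adjusted p = 0.503) and Rangap1 (0.28, adjusted p = 0.255) did not pass.

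Nup155, Nup214 and Tnpo3 lost their calls without either treated knockout library, although these are no part of the contrast and share only its gene filter, scaling and estimate of the spread, without either treated wild-type library and without untreated wild-type library A, and Nup205 lost its call without any of these or untreated wild-type library B. Without untreated wild-type library A the log2 change of Nup155 was 0.43 and that of Tnpo3 −0.41. Under total-count scaling, Nup155 (adjusted p = 0.0527) and Nup205 (0.0667) were not called. Treated CPM lay above both untreated values for 23 members, where 22.3% of all genes tested did, and below them for 10, where 22.8% did.

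The second comparison asks the same in Gcn2 knockout cells, which per the labels lack this kinase. Most members that were called fell, among them 5 receptors with different cargoes: Kpna6, Ipo13, Tnpo3, Xpot and Xpo6. Among nucleoporins Nup50 and Nup62 fell, while Tpr, Ranbp2 and Nup210 rose. In total 10 of 51 members were called, against 8.88% of all genes tested, with 3 rising (3.16% of all genes) and 7 falling (5.71%). Here too the median SE was smaller for the members (0.122) than for all genes tested (0.180). Treated CPM were above both untreated values for 23 members (32.5% of all genes) and below them for 20 (27.0%). With total-count scaling, which moves the median of all genes by −0.13, 1 member rose and 10 fell, and over all genes 388 rising and 701 falling became 196 and 1195.

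**Figure D2:**
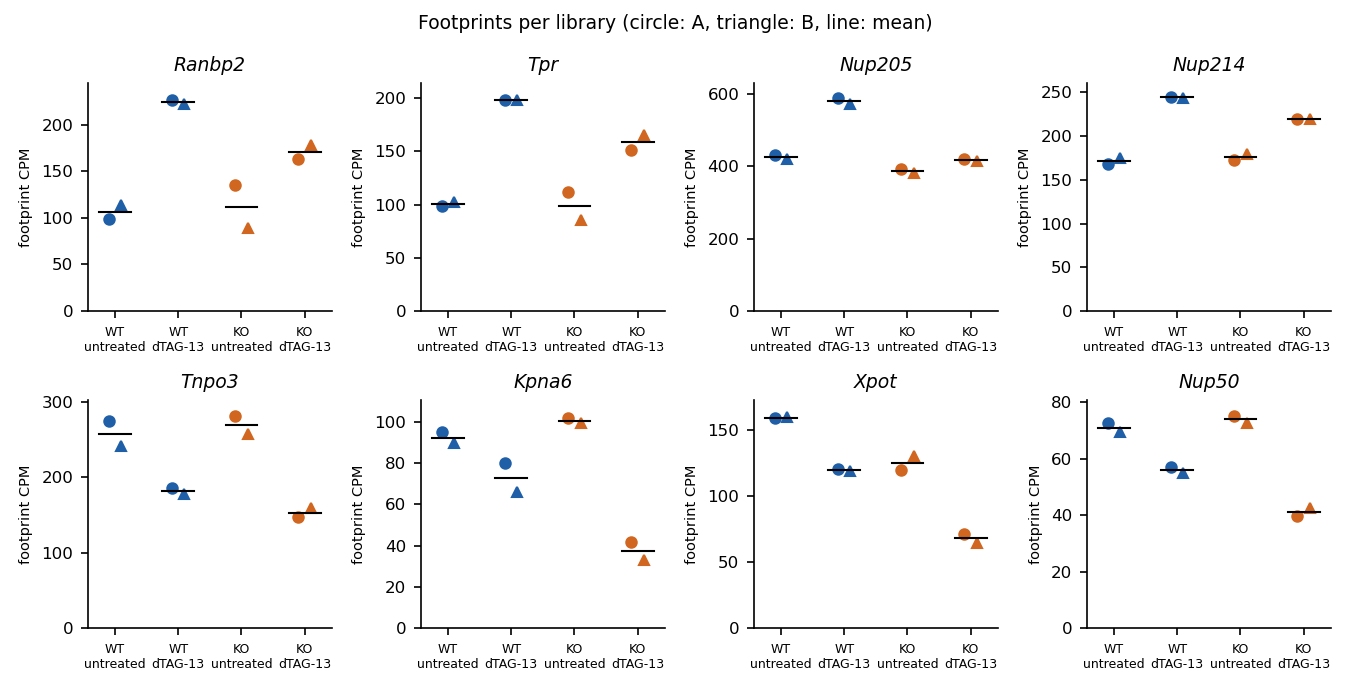
Footprint CPM per library (y axis, from 0) for 8 members in the 4 footprint groups, with circles for replicate A, triangles for replicate B and lines at group means. Ranbp2 and Tpr are higher after dTAG-13 in both genotypes, and Kpna6 falls to 42.0 and 33.3 CPM in treated knockout cells.

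Kpna6 (chromosome 4, 129643979 to 129672767), an importin α that reads classical nuclear localization signals, had the largest change of the members in the knockout. Its footprints were at 102 (A) and 99.6 (B) CPM untreated and 42.0 (A) and 33.3 (B) CPM treated. Both treated libraries lay below all 6 other footprint libraries, a 2.68-fold fall (log2 change −1.42, SE 0.142, adjusted p = 0.000216). The other importin α genes were not called. Kpna1 had the next lowest estimate (−0.38, adjusted p = 0.0776) and Kpna2rt, whose footprints are uncertain as stated above, the highest (0.36, adjusted p = 0.388).

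Xpot (chromosome 10, 121587380 to 121626506) had 119.8 (A) and 130.3 (B) CPM untreated and 71.7 (A) and 64.8 (B) CPM treated in the knockout. The groups were far apart, with a 1.83-fold fall (log2 change −0.87, SE 0.113, adjusted p = 0.000660). Tnpo3 had 281 (A) and 258 (B) CPM untreated and 147 (A) and 159 (B) CPM treated, again without overlap (log2 change −0.82, SE 0.115, adjusted p = 0.00104). Xpo6, which exports actin, had 83.5 (A) and 96.9 (B) CPM untreated and 58.5 (A) and 60.2 (B) CPM treated, so that its treated libraries were both lower (log2 change −0.60, SE 0.133, adjusted p = 0.0141). Ipo13, which carries cargo in both directions, had few counts, at 13.7 (A) and 14.0 (B) CPM untreated and 6.88 (A) and 7.49 (B) CPM treated. It fell with the widest SE of the called members (log2 change −0.95, SE 0.201, adjusted p = 0.0116).

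Several other receptors did not pass in the knockout. Kpnb1 had 1050.0 (A) and 1199 (B) CPM untreated and 955 (A) and 963 (B) CPM treated, with both treated values below both untreated ones, but did not pass (log2 change −0.23, SE 0.121, adjusted p = 0.269). Xpo1 was at 517 (A) and 381 (B) CPM untreated and 426 (A) and 397 (B) CPM treated, so its groups overlapped (−0.12, adjusted p = 0.698). Cse1l was at 0.31 (adjusted p = 0.147), and Tnpo1, which imports proteins with a proline-tyrosine signal, at 0.24 (adjusted p = 0.226). Ran (−0.09, adjusted p = 0.688) and Rangap1 (0.18, adjusted p = 0.418) again did not pass.

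Among nucleoporins of the knockout, Nup50 (chromosome 15, 84923428 to 84942963) had 75.0 (A) and 72.8 (B) CPM untreated and 39.8 (A) and 42.5 (B) CPM treated. Its treated libraries were lower than all 6 others, a 1.79-fold fall (log2 change −0.84, SE 0.116, adjusted p = 0.000925). Nup62 had 325 (A) and 352 (B) CPM untreated and 239.6 (A) and 224 (B) CPM treated, lower without overlap (log2 change −0.55, SE 0.116, adjusted p = 0.0113), and its partner Nup54 was at −0.37 (adjusted p = 0.0590). Nup153, the third basket protein, was at −0.22 (adjusted p = 0.205).

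Tpr, in the same basket as Nup50, moved the other way, with 112 (A) and 85.6 (B) CPM untreated and 152 (A) and 165 (B) CPM treated, higher without overlap (log2 change 0.68, SE 0.132, adjusted p = 0.00675). Ranbp2 had 135 (A) and 89.5 (B) CPM untreated and 163 (A) and 178 (B) CPM treated, and its untreated libraries differed from each other by more than the treated ones (log2 change 0.60, SE 0.163, adjusted p = 0.0376). Nup210, a membrane glycoprotein of the pore, had 141 (A) and 152 (B) CPM untreated and 193 (A) and 218 (B) CPM treated, higher in both treated libraries (log2 change 0.48, SE 0.122, adjusted p = 0.0265). The remaining membrane genes Ndc1 (0.12), Pom121 (0.11) and Aaas (0.03) did not pass.

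No scaffold gene was called in the knockout. Nup155 (0.19, adjusted p = 0.385), Nup205 (0.11, adjusted p = 0.565), Nup93 (0.26, adjusted p = 0.174) and Nup107 (0.23, adjusted p = 0.264) had estimates above 0, and the range of the Y complex ran from −0.20 for Nup133 to 0.35 for Nup43. Nup214 (0.32, adjusted p = 0.0764) and Nup98 (0.24, adjusted p = 0.233) missed the threshold as well.

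Kpna6, Xpot, Nup50 and Tnpo3 were called in the knockout in each fit that left out 1 library. Ipo13 and Nup210 lost the call without any 1 of the 4 knockout libraries, and Nup62, Xpo6, Tpr and Ranbp2 lost it without treated library A, treated library B or untreated library B. Without untreated library B the log2 change of Ranbp2 was 0.34 and that of Tpr 0.50. Under total-count scaling Nup210 (adjusted p = 0.106) and Ranbp2 (0.0968) were not called. The summed level of 6 primitive endoderm markers, none of them at 0 throughout, was 5.50 to 6.87 CPM in treated and 8.04 to 9.84 CPM in untreated knockout libraries, against 9.43 to 10.5 CPM in wild-type ones, and its part in these changes was not tested. RNA was not measured in the knockout, so these changes cannot be set against mRNA.

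The difference between the genotypes' treatment changes was tested directly, as knockout minus wild type. None of the 51 members was called in the edgeR fit of all 8 footprint libraries by group, against 0.0489% of all genes (6 of 12267). In that fit 9 members and 1229 of all genes had an unadjusted p under 0.05. Kpna6 had the largest difference (−1.08, SE 0.198, adjusted p = 0.0813), made of a change of −0.34 in wild-type and −1.42 in knockout cells, and DESeq2 called it (adjusted p = 0.00102, with 0.562% of all genes called). With no filter on low counts, edgeR called Kpna6 (adjusted p = 7.22e-05) and Xpo1 (adjusted p = 0.0492), and 1.16% of all genes. With the replicate letter added to the model, edgeR called Kpna6 (adjusted p = 0.0161) and 0.318% of all genes. With the letters fitted within each genotype, a model chosen after seeing the data, it called Kpna6, Nup133, Xpo1, Nup50 and Xpot, and 5.98% of all genes. The labels tie these letters to no batch or day. Over the fits that left out 1 library, the difference of Kpna6 ranged from −1.29 to −0.94 and its adjusted p from 0.0354, a call, without treated wild-type library B to 0.675 without treated knockout library B. In the fit by group, the next were Xpo1 (−0.62, adjusted p = 0.378), Nup133 (−0.60, adjusted p = 0.265) and Nup50 (−0.50, adjusted p = 0.316). In the same fit the differences of Xpot (−0.46, adjusted p = 0.332), Ranbp2 (−0.47, adjusted p = 0.536) and Tpr (−0.29, adjusted p = 0.646) did not pass either, and Nup210 had the highest (0.33, adjusted p = 0.563). A call in 1 genotype and not in the other thus does not show by itself that the genotypes differ.

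In untreated cells, knockout and wild type were compared to see whether the members differed before treatment. No member was called, against 0.00815% of all genes (1 of 12267), and 2 members and 733 of all genes had an unadjusted p under 0.05 by the same edgeR test. They were Xpot (−0.35, adjusted p = 0.724), lower in the knockout, and Pom121 (0.32, adjusted p = 0.735), higher. Xpot was at 159 (A) and 159.6 (B) CPM in untreated wild-type and 119.8 (A) and 130.3 (B) CPM in untreated knockout cells, without overlap. Both groups of this comparison also enter the treatment changes above.

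Poly(A) RNA was measured in wild-type cells to set footprints against mRNA. Of the 54 members of the RNA table, Kpna7 was too low to test and Kpna2-ps and Ipo11-lrrc70 were listed at 0. None of the 51 tested was called (0.163% of all 15955 genes were), 3 members and 818 of all genes had an unadjusted p under 0.05 by edgeR, and DESeq2 also called 0. Estimates ran from −0.23 for the paralog Nup210l, whose RNA was at 2.99 to 4.6 CPM, to 0.15 for Nup214 (SE 0.0512, adjusted p = 0.734). Ranbp2 RNA was at 342 (A) and 365 (B) CPM untreated and 346 (A) and 366 (B) CPM treated, values that overlapped (log2 change 0.01). Tpr RNA was at 411 (A) and 429 (B) CPM untreated and 435 (A) and 433 (B) CPM treated, with the treated libraries slightly higher and a log2 change that did not pass (0.05, adjusted p = 0.993). RNA of Tnpo3 was at 333 (A) and 326 (B) CPM untreated and 335 (A) and 326 (B) CPM treated, also overlapping. Treated RNA CPM lay above both untreated values for 18 members (16.6% of all genes tested) and below them for 7 (16.9%). Without untreated RNA library B, 4 members were called, all rising: Nup188, Nup98, Nup214 and Xpo5. In that fit the genes called over the whole table went from 26 to 267 of 16738 (1.60%), 209 of them rising.

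**Figure D3:**
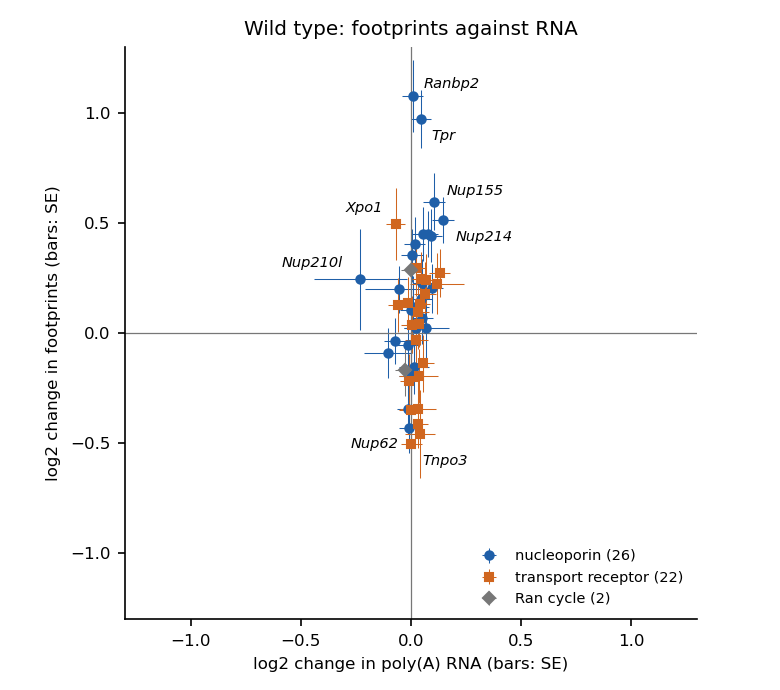
Log2 change in footprints (y axis) against log2 change in poly(A) RNA (x axis) for 50 members in wild-type cells, treated over untreated, with bars of 1 SE. RNA changes lie between −0.23 and 0.15, while footprint changes run from −0.50 (Tnpo3) to 1.08 (Ranbp2).

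Translational efficiency, the footprint change relative to the RNA change, was tested as the interaction of assay and treatment in wild-type cells. The name stands for this ratio of counts only, and the protein made per mRNA was not measured. The median SE was 0.135 for the 50 members and 0.220 for all genes tested. Of the 50 members, 2 were called, both rising, against 1.47% of all 12887 genes tested. They were Ranbp2 (log2 change 1.07, SE 0.131, adjusted p = 0.00955) and Tpr (log2 change 0.93, SE 0.114, adjusted p = 0.00955), and this test uses the same wild-type footprint libraries as the footprint comparison. Their ratios of footprint to RNA CPM went from 0.30 to 0.629 for Ranbp2 and from 0.241 to 0.458 for Tpr, so both remained under the untreated nucleoporin median of 0.958. Xpot (−0.44, adjusted p = 0.0767), Tnpo3 (−0.51, adjusted p = 0.0817), Nup62 (−0.42, adjusted p = 0.149) and Xpo1 (0.56, adjusted p = 0.154) did not pass. Total-count scaling moved the 101 genes rising and 89 falling over the table to 57 and 137, with 2 members rising and 1 falling. Without any 1 of the 4 RNA libraries, the adjusted p of Ranbp2 and Tpr was 0.0992 to 0.117, and in those fits no gene of the table was called, with 1191 to 1284 genes at an unadjusted p under 0.05.

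Nucleoporins and receptors were then set side by side as classes. In wild-type cells the median log2 footprint change was 0.18 for 26 nucleoporins, 0.10 for 23 receptors and −0.01 for all genes tested. There 5 nucleoporins rose and none fell, and no receptor rose and 1 fell, where 2.94% of all genes rose and 1.94% fell. In the knockout the medians were 0.11, −0.12 and 0.04. There 3 nucleoporins rose and 2 fell, and no receptor rose and 5 fell, where 3.16% of all genes rose and 5.71% fell. Members had a smaller median SE than all genes tested, so a given change was easier to call in either class. Under total-count scaling the knockout median of nucleoporins was −0.02 and that of receptors −0.24, against −0.09 for all genes. Estimates above 0 were found for 19 of 26 nucleoporins and 14 of 23 receptors in wild-type cells, and for 18 and 10 in the knockout, where 5992 and 6688 of all 12267 genes had one. The class medians carry no test, and within each class the spread exceeded the gap between classes: the lowest and highest nucleoporin were −0.43 (Nup62) and 1.08 (Ranbp2) in wild-type cells, and −0.84 (Nup50) and 0.68 (Tpr) in the knockout.

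Summed over each class, receptor counts divided by nucleoporin counts came to 1.48 and 1.52 in untreated and 1.26 and 1.39 in treated wild-type footprint libraries. In the knockout the ratio was 1.41 in both untreated libraries and 1.32 and 1.29 in the treated ones. The treated libraries were thus lower than the untreated ones of the same genotype, without overlap, but the shares behind the ratio differed. In wild-type cells the nucleoporin share of all footprint counts was 0.448% ± 0.0248 (SD, n = 2) untreated and 0.506% ± 0.0214 treated, higher without overlap, and the receptor share was 0.672% ± 0.0482 and 0.673% ± 0.0742, with overlap. In the knockout the nucleoporin share was 0.454% ± 0.0143 untreated and 0.441% ± 0.00472 treated, with overlap, and the receptor share 0.640% ± 0.0202 and 0.576% ± 0.00374, lower without overlap. These shares are of unscaled totals. With total-count scaling the median log2 change of all genes was itself −0.089 in wild-type and −0.091 in knockout cells. Shares after TMM were not computed, so whether each shift in share would hold under that scaling was not tested. The ratio of the classes does not depend on the scaling. Without Kpnb1 and Nup205, which held the most counts of their classes summed over the libraries of an assay, the mean ratio was 1.36 untreated and 1.27 treated in wild-type cells, and 1.26 untreated and 1.21 treated in the knockout. In RNA the ratio with every member was 1.44 and 1.4 untreated and 1.39 and 1.4 treated, which overlapped.

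**Figure D4:**
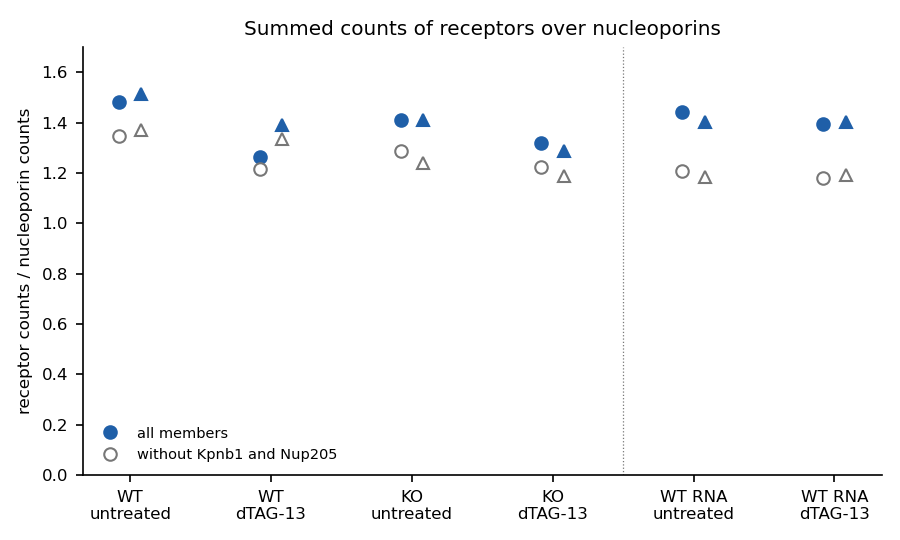
Summed receptor counts over summed nucleoporin counts (y axis, from 0) in each of the 12 libraries, with circles for replicate A and triangles for replicate B, and open symbols for the ratio without Kpnb1 and Nup205. Footprint ratios of treated libraries (1.26 to 1.39) lie below untreated ones (1.41 to 1.52), and RNA ratios lie between 1.39 and 1.44.

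Other genes of nuclear transport, outside the naming rule, were taken from a list of 34 that holds further pore proteins, Ran regulators, mRNA export factors and nuclear envelope proteins, of which 33 were tested for footprints. In wild-type cells 1 rose, Thoc2 of the THO complex that loads export factors on mRNA (log2 change 0.79, SE 0.164, adjusted p = 0.0159), and none fell, where 2.94% of all genes rose and 1.94% fell. In the knockout none rose and 3 fell, where 3.16% of all genes rose and 5.71% fell. These were Rcc1, the exchange factor that makes nuclear Ran-GTP (−0.99, adjusted p = 0.000766), Ranbp3, a cofactor of Xpo1 (−0.59, adjusted p = 0.0150), and Pcid2 of an mRNA export complex at the basket (−0.44, adjusted p = 0.0469). The list's median was −0.04 in wild-type and −0.06 in knockout cells, where that of all genes tested was −0.01 and 0.04. In RNA no gene of the 34 was called by edgeR (0.163% of all genes were), and in translational efficiency Thoc2 was the 1 of 34 called, rising (0.84, adjusted p = 0.0217), where 1.47% of all genes were called.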

How the data were processed

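Footprints were counted in 8 and poly(A) RNA in 4 libraries of embryonic stem cells. The deposited values are raw counts per gene symbol, made by the authors, checked here to be whole numbers with unequal totals (no column was left without a sample). The submitters' processing notes list HISAT2 2.1.0, cutadapt, CASAVA 1.4 and mm10. Not given in the sources used here are the counter, the annotation, strand use and what was done with shared reads. For replicate B of the treated knockout the label names the other replicate's column, and only the letter in the title ties it to its own. Groups came from genotype and treatment in the labels.

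Counts were tested with edgeR 4.0.16 in R 4.3.3, with TMM scaling, filterByExpr at a minimum count of 10 and the robust quasi-likelihood test, two-sided, with Benjamini-Hochberg adjustment over all genes tested and a threshold of 0.05. The 8 footprint libraries shared 1 fit by group (12267 genes, 4 residual degrees of freedom), the RNA libraries had their own (15955 genes, 2 residual degrees of freedom), and the change in translational efficiency was the assay-by-treatment interaction in the 8 wild-type libraries of both assays (12887 genes), TMM being run per assay. The footprint and RNA tables were joined by symbol, 20050 as written and 84 through RefSeq synonyms. Each SE follows from a log2 change and its F statistic. CPM are counts over TMM-scaled totals.

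Members and lists were chosen with earlier results of these data known. Members named with values are those called in any comparison, a set kept throughout for their roles, and others at the ends of a range. Nup133, Nup188, Nup88, Kpna1, Tnpo1 and Xpo5 were named after their values were seen. Each group had only 2 replicates, and p-values measure the spread between these samples. Replicate letters did not enter as pairs, as the labels tie them to no batch or day. Alternatives were DESeq2 1.42.0, other scalings, no filter, a replicate block, each genotype alone and each library left out. Scripts were tested on simulated data. Promoters and positions are from RefSeq (GRCm38.p6). Protein lengths and repeat counts were not used here, and levels were not expressed per length.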

Additional observations from a re-analysis of the deposited data

How the results depend on the processing

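No called value of a named member changed direction: of 266 alternative fits of 18 such values, 209 kept the call and 57 lost it, while 60 of 1639 fits of their other values gained one. At these depths the SE of a footprint change in wild-type cells was 0.104 to 0.236 over the members. In the following, the share of all genes called in the same fit stands in parentheses. The 6 members called in wild-type cells (4.88%) became 10 with DESeq2 (5.86%), 2 with the genotype fitted alone (0.159%), 11 with no filter on low counts (6.36%) and 2 to 8 without 1 library (1.59% to 5.33%). The 10 in the knockout (8.88%) became 4 to 11 without 1 library (1.71% to 10.9%). For the difference between genotypes, 0 (0.0489%) became 1 with DESeq2 (0.562%), 2 with no filter (1.16%) and 0 to 1 without 1 library (0% to 0.259%). Without 1 library, RNA gave 0 to 4 (0.0848% to 1.60%) and translational efficiency 0 to 10 (0% to 5.06%), the 10 without untreated wild-type footprint library B.

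With the replicate letter as a block, members called were 10 in wild-type cells (7.59%), 1 for the difference (0.318%), which was Kpna6 (adjusted p = 0.0161), and 17 for translational efficiency (12.1%). A block within genotype gave 20 in wild-type cells (17.2%), 17 in the knockout (25.7%) and, chosen after seeing the data, 5 for the difference (5.98%): Kpna6, Nup133, Xpo1, Nup50 and Xpot. Same-lettered libraries correlated in their deviations at 0.565 between untreated and treated wild-type footprints, the groups of the wild-type comparison, at 0.128 between the untreated footprint groups, at 0.121 between the knockout groups and at 0.0196 to 0.0291 between the others. With 2 replicates per group and no batch or day behind the letters in the labels, they were not taken as pairs.

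Among class medians, that of nucleoporins in wild-type cells was 0.095 under total-count scaling, and in the knockout 0.076 fitted alone, 0.068 with no filter, −0.018 under total-count scaling and 0.050 to 0.13 without 1 library. That of receptors in the knockout was −0.15 fitted alone, −0.15 with no filter, −0.24 under total-count scaling and −0.16 to −0.016 without 1 library. Without 1 library, the difference between genotypes ranged from −0.24 to −0.12 for nucleoporins, and the untreated difference from −0.027 to 0.044 for nucleoporins and from −0.14 to 0.0068 for receptors. The nucleoporin median of translational efficiency was 0.034 under total-count scaling and 0.075 to 0.20 without 1 library. For counts and medians that moved, the cause was not tested beyond the smaller number of samples or genes that an alternative itself brings.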
